A study of Mus musculus with 8 samples.

Results

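Mitosis and cytokinesis genes were followed in endogenous CD8+ T cells of tumor-bearing mice that had been separated by their surface level of IL-18Rα, the binding chain of the interleukin-18 receptor. The list held 44 genes of the 47493 in the deposited table, and each was found once under its own symbol. They were chosen by name as G2/M cyclins, spindle, kinetochore, checkpoint and cytokinesis genes, with earlier results of these data known. All 44 had a mean of at least 1 FPKM (a fragment level corrected for transcript length and library depth) and were tested. The donors were 4 female C57BL/6 mice, 6 to 8 weeks old when 200000 B16F10 melanoma cells were placed in the skin on day 0. They then received 300 mg/kg cyclophosphamide on day 3, 2000000 Pmel-1 cells (CD8+ T cells with a transgenic receptor for a melanoma antigen) on day 5 with 10000 IU of human IL-2 on 3 days, and 200 μg of the CD4-depleting antibody GK1.5 weekly from day 10. On day 25, Thy1.1-negative CD8+ cells, that is, cells of the host and not the transferred Pmel-1 cells, were taken from inguinal lymph nodes and spleen. An antibody to IL-18Rα on magnetic beads retained the IL-18Rαhi-enriched fraction, and the cells that passed the column formed the flow-through, which was the control and was not itself sorted for absence of the receptor. Each mouse was taken to have given 1 library of each fraction. Both fractions shared all treatments, and no library came from an untreated mouse.

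A cell that has copied its DNA enters mitosis when B-type cyclins switch on the kinase Cdk1. Kinetochores then tie chromosomes to the spindle, a checkpoint holds the anaphase-promoting complex back until all are attached, and the central spindle guides the cleavage of the cell. Most of these genes are transcribed in late cell cycle under repression by the DREAM complex and activation by MuvB with B-Myb and Foxm1, through promoter elements known as the cell cycle genes homology region (CHR) and the NF-Y box, and activated T cells use this program as they expand.

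The promoters of the member with the highest level in each of 8 role groups are shown because such elements were sought there. Each line runs from 100 bases before the RefSeq gene start to 30 bases after it, 5′ to 3′ on the strand of the gene, on GRCm38.p6. Capitals mark matches to the CHR (TTTGAA or TTCGAA) or the NF-Y box (CCAAT) on either strand, which on the opposite strand read TTCAAA and ATTGG. Each was searched on its own, so neighboring matches may share a base.
Cdk1: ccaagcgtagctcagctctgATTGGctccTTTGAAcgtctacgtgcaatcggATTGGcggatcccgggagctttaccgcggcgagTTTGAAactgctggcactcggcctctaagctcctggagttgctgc
Bub3: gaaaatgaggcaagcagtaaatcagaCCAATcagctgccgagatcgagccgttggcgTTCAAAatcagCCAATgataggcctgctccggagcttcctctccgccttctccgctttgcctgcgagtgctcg
Ube2c: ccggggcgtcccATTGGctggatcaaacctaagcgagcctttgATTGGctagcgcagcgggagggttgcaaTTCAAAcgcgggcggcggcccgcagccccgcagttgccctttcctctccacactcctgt
Birc5: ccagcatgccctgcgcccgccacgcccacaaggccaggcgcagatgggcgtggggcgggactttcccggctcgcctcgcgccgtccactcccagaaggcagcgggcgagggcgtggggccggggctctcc
Cenpa: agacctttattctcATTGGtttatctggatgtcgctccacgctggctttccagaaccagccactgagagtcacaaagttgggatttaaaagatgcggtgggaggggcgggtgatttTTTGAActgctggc
Kif22: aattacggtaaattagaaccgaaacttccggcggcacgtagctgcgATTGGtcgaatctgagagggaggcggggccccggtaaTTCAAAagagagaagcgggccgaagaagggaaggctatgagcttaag
Racgap1: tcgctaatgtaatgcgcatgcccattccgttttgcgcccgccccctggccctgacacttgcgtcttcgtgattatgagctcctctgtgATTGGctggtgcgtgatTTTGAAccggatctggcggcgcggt
Top2a: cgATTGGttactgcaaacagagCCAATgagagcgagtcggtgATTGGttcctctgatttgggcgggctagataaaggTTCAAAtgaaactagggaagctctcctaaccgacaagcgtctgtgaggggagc
These stretches are chr10:69352883-69353012 (minus strand) for Cdk1, chr7:131560270-131560399 (plus strand) for Bub3, chr2:164769829-164769958 (plus strand) for Ube2c and chr11:117849137-117849266 (plus strand) for Birc5. They are chr5:30666786-30666915 (plus strand) for Cenpa, chr7:127042391-127042520 (minus strand) for Kif22, chr15:99651627-99651756 (minus strand) for Racgap1 and chr11:99024160-99024289 (minus strand) for Top2a. Cdk1 carried TTTGAA at 2 places, Ube2c, Bub3, Cenpa, Kif22, Racgap1 and Top2a carried it once, and Birc5 carried none of these letters in the printed stretch.

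Across the list, windows from 250 bases before to 50 bases after the start were matched in the RefSeq table for 36 of the 44 members. TTTGAA was present in 28 of them (77.8%), against 20.2% of 27025 genes with such a window, 44.4% of 72 other mitosis genes and 10.3% of 29 DNA replication genes. In 26 members a match began no more than 50 bases before the start or after it. The letters CCAAT were present in 75.0% of the members and 41.1% of all genes. They were also present in 65.3% of the other mitosis genes and 65.5% of the replication genes. Of the members, 19 had at least 2 matches. Both TTTGAA and CCAAT were present in 66.7% of the members, 33.3% of the other mitosis genes, 6.9% of the replication genes and 8.97% of all genes. TTCGAA was found in 3 members (8.33%), in 8.33% of the other mitosis genes, 6.9% of the replication genes and 1.8% of all genes. No TTTGAA was found for Birc5, Bub1, Ccnb1, Cenpe, Mad2l1, Nuf2, Nusap1 and Pttg1. A match is a description of letters, and binding was not measured.

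**Figure D1:**
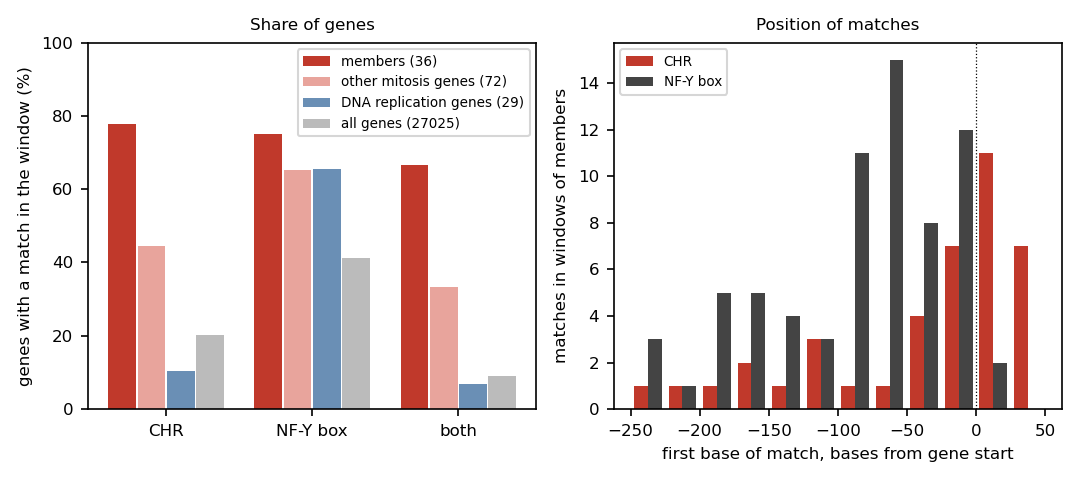
Left, percentage of genes with a match to the CHR (TTTGAA form), the NF-Y box or both in the 300-base promoter window, for the members (36), other mitosis genes (72), DNA replication genes (29) and all genes with a window (27025). Right, number of matches by distance of their first base from the gene start in the 39 windows of the 36 members. The bars for the CHR stand at 77.8% for the members and 10.3% for the replication genes, and its matches gather around the start.

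Depth was estimated at 14800000 to 17800000 fragments per library and overlapped between the fractions. Il18r1, which encodes the receptor chain used for selection, ranged from 22.2 to 37.2 FPKM in flow-through and from 106.6 to 116 FPKM in enriched libraries, without overlap and in the direction of the selection. The 8 T-cell identity markers (Cd3d, Cd3e, Cd3g, Cd247, Cd8a, Cd8b1, Lck and Lat) were present in every library. Their summed level was 1458 to 2736 FPKM in flow-through and 2708 to 2933 FPKM in enriched libraries. The library of flow-through replicate 1 stood apart, as it was the lowest of the 8 for each of these markers (Cd8a was at 179, 345, 297 and 336 FPKM in flow-through replicates 1 to 4). The same library had the highest erythroid progenitor markers. Its results are therefore given with and without it. The study took the flow-through from the same cells as the enriched fraction. Libraries with the same number were taken to come from the same mouse, which the labels do not state in words. The limma model was fitted without the mouse as a block and, as the alternative, with it.

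Mitosis and cytokinesis genes were higher in the IL-18Rαhi-enriched fraction. Of the 44 members, 43 had a positive log2 fold change, and 19 rose at a limma adjusted p under 0.05, where 14.1% of the 12166 genes tested were called higher. No member fell, where 13.7% of all genes were called lower. At an unadjusted p under 0.05, 27 members were higher and 0 lower. With the mouse as a block, 39 members were called higher and 0 lower, against 22.2% and 22.7% of all genes, and all 19 genes called without the block were among the 39. The median log2 fold change of the members was 0.46, with a range of -0.11 to 0.84, and that of all genes was -0.02. With libraries scaled to T-cell identity markers, as described further on, no member was called. In bulk RNA, a larger share of dividing cells, more of these transcripts per cell and a different mix of cell types cannot be told apart. Markers of other cells, given further on, were found in both fractions, and their part in the result was not tested.

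The same direction was seen within mice. The enriched library was above the flow-through library of the same mouse for 40, 44, 43 and 44 members in mice 1 to 4, and 40 members were higher in 4 of 4 mice, which held for 29.2% of all genes. The median within-mouse difference on the log2 scale was 0.23 in mouse 1, 0.56 in mouse 2, 0.46 in mouse 3 and 0.57 in mouse 4. The fractions did not overlap for 13 members, all higher in the enriched fraction, where 16.4% of all genes lay wholly higher and 15.9% wholly lower. The criteria with which the study listed its genes include a 3-fold difference of means; 0 of the 44 members and 0.362% of all genes met them, so nothing about the members is read from that count.

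**Figure D2:**
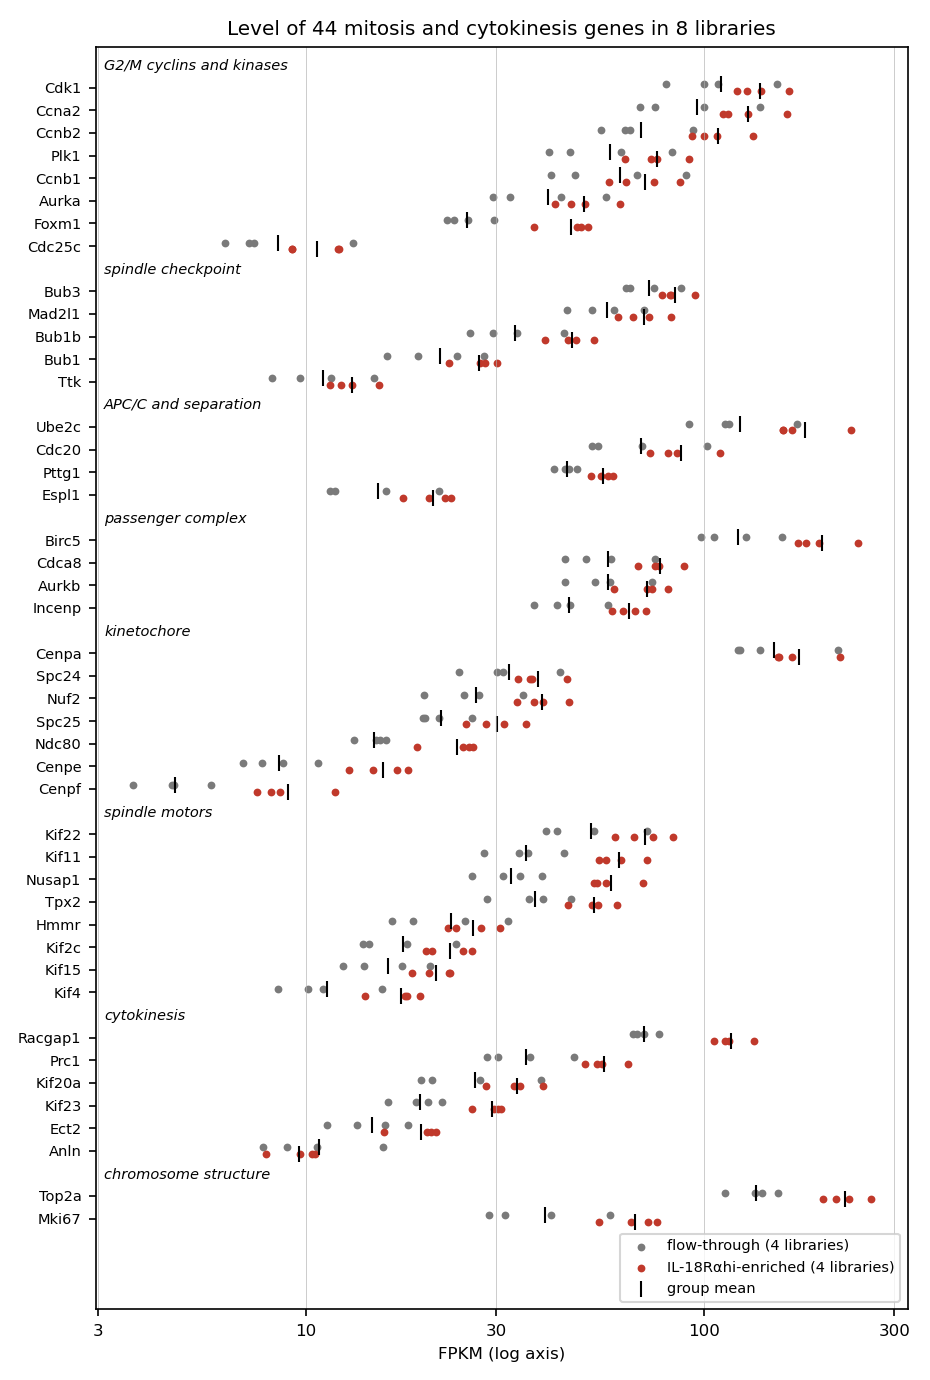
FPKM of the 44 members (log axis) in the 4 flow-through (grey) and 4 IL-18Rαhi-enriched libraries (red), ordered by role and by mean level, with group means as black ticks. Enriched libraries lie to the right for most members, with no overlap for 13, and Anln is the member whose enriched mean is the lower of its means.

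**Figure D3:**
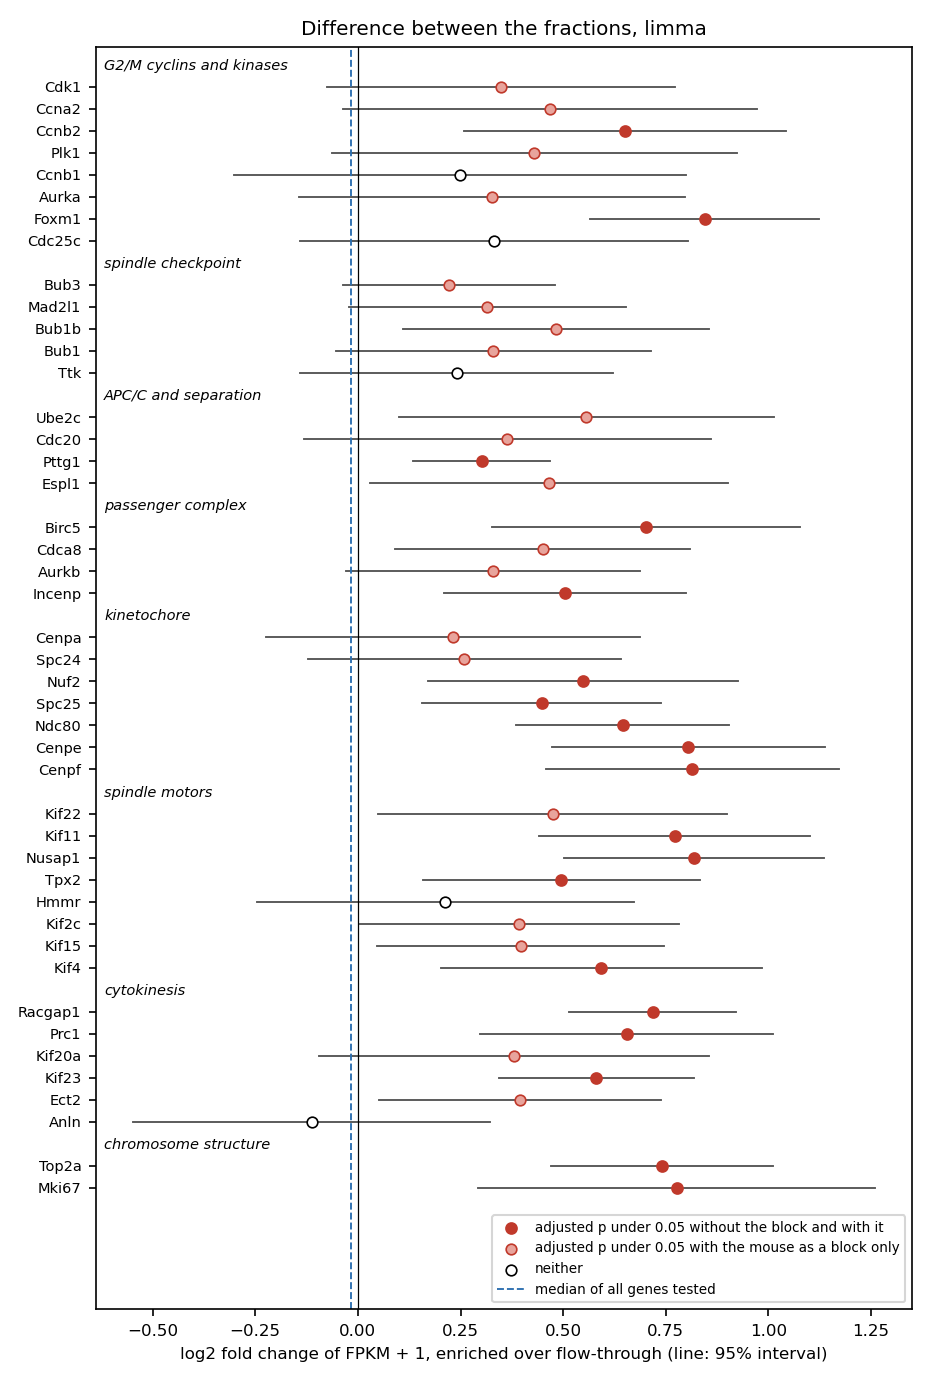
Log2 fold change of FPKM + 1 between the fractions with its 95% interval for each member, by role. Filled red points mark the 19 members called by limma without the block and with it, pale points the members called with the mouse as a block only, and open points the 5 members called by neither.

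The first group holds the cyclins, kinases and phosphatase that drive entry into mitosis, and their transcription factor Foxm1. Of these 8 genes, 2 rose (6 with the block), with a median log2 fold change of 0.39. Here and in the role groups that follow, counts stand beside 14.1% of all genes called higher (22.2% with the block). Cdk1 (chr10:69335146-69352938), the kinase at the center of mitotic entry, was at 152, 99.6, 108 and 80.2 FPKM in flow-through replicates 1 to 4 and 163, 128, 139 and 120.4 FPKM in enriched replicates 1 to 4. Its groups overlapped because flow-through replicate 1 was above 3 of the enriched libraries, and it did not pass the test (log2 fold change 0.35, SE 0.19, adjusted p = 0.19; 0.017 with the block). Ccna2, the cyclin of S phase and early mitosis, was at 138, 75.2, 99.9 and 68.9 FPKM in the flow-through libraries and at 162, 114, 129 and 111 FPKM in the enriched ones, again with flow-through replicate 1 inside the enriched range. Its log2 fold change was 0.47 (SE 0.22, adjusted p = 0.15; 0.0068 with the block). Foxm1 (chr6:128362967-128376146), which activates G2/M genes, was at 29.7, 23.5, 25.5 and 22.5 FPKM in the flow-through libraries and at 49.1, 47.8, 50.98 and 37.4 FPKM in the enriched ones. Every enriched library was above every flow-through library, and its log2 fold change of 0.84 (SE 0.12, adjusted p = 0.0026) was the largest of the 44. Ccnb1, cyclin B1, was at 89.7, 47.3, 67.8 and 41.3 FPKM in the flow-through libraries and at 87.1, 63.7, 74.8 and 57.7 FPKM in the enriched ones, and its groups overlapped widely (log2 fold change 0.25, 95% interval -0.30 to 0.80, adjusted p = 0.47; 0.081 with the block). Its close relative Ccnb2, cyclin B2, rose from 69.2 ± 16.8 to 108 ± 17.1 FPKM (mean ± SD, n = 4; log2 fold change 0.65, adjusted p = 0.025). The mitotic kinases Plk1 (0.43) and Aurka (0.33) passed the test only with the block (adjusted p = 0.014 and 0.023), and the Cdk1-activating phosphatase Cdc25c (0.33) passed neither.

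None of the 5 spindle assembly checkpoint genes, whose products delay anaphase while kinetochores are unattached, passed the limma test without the block (1 had an unadjusted p under 0.05), and 4 passed it with the block. Over all genes, 14.1% were called higher without the block, so 0 of 5 genes is near that share. It is not read as a trait of the group. The median log2 fold change of the 5 genes was 0.32. Bub3, a scaffold of the checkpoint, was at 87.2, 63.7, 74.6 and 65.2 FPKM in the flow-through libraries and at 94.7, 82.2, 82.6 and 78.2 FPKM in the enriched ones. This was among the smallest differences of the list (log2 fold change 0.22, 95% interval -0.04 to 0.48, adjusted p = 0.17; 0.036 with the block). Mad2l1, which encodes the Cdc20 inhibitor Mad2, was at 70.7, 52.1, 59.3 and 45.2 FPKM in the flow-through libraries and at 82.3, 66.3, 72.7 and 60.6 FPKM in the enriched ones, with a log2 fold change of 0.32 (adjusted p = 0.14; 0.0079 with the block). Bub1b, which encodes BubR1, was at 44.5, 29.6, 33.9 and 25.8 FPKM in the flow-through libraries and at 52.9, 45.5, 47.5 and 39.8 FPKM in the enriched ones. It had the largest difference of the group, 0.48 (SE 0.16, adjusted p = 0.057; 0.0041 with the block), and only flow-through replicate 1 lay inside the enriched range. The kinase genes Bub1 (0.33) and Ttk (0.24) had smaller values, and Ttk passed neither test.

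Of the 4 genes of the anaphase-promoting complex pathway and sister separation, 1 rose (4 with the block; median 0.41). Ube2c, the ubiquitin-conjugating enzyme of the complex, was at 171, 113, 115 and 91.7 FPKM in the flow-through libraries and at 233, 158, 166 and 158 FPKM in the enriched ones. Replicate 1 was the highest of its group in both fractions, and the log2 fold change of 0.56 (SE 0.20, adjusted p = 0.069) passed the test only with the block (0.0019). Cdc20, an activator of the complex, was at 102, 54.1, 69.6 and 52.2 FPKM in the flow-through libraries and at 109.7, 81.2, 85.6 and 73.1 FPKM in the enriched ones (log2 fold change 0.36, adjusted p = 0.24; 0.016 with the block). Pttg1, which encodes the separase inhibitor securin, was at 41.9, 45.7, 48.03 and 44.7 FPKM in the flow-through libraries and at 57.2, 55.1, 51.8 and 59.1 FPKM in the enriched ones. Its log2 fold change of 0.30 was small and its libraries did not overlap (SE 0.07, adjusted p = 0.018), but it became -0.01 under the T-cell scaling given further on. Espl1, separase itself, had a log2 fold change of 0.47 and passed the test only with the block (adjusted p = 0.014).

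The chromosomal passenger complex, which corrects faulty kinetochore attachments and later acts in cytokinesis, was represented by all 4 of its subunits, of which 2 rose (4 with the block; median 0.48). Birc5 (survivin; chr11:117849251-117855743) was at 156, 106, 127 and 97.9 FPKM in the flow-through libraries and at 243, 180.1, 194 and 172 FPKM in the enriched ones. All enriched libraries were above all flow-through libraries (log2 fold change 0.70, SE 0.16, adjusted p = 0.016). Cdca8 (borealin) was at 75.2, 50.5, 58.2 and 44.7 FPKM in the flow-through libraries and at 88.7, 75.4, 77.1 and 68.3 FPKM in the enriched ones, with a log2 fold change of 0.45 (adjusted p = 0.063; 0.005 with the block). Aurkb, the kinase of the complex, was at 73.7, 53.02, 58.01 and 44.6 FPKM in the flow-through libraries and at 81.1, 74.1, 71.8 and 59.3 FPKM in the enriched ones and had the smallest difference of the group (0.33, 95% interval -0.03 to 0.69, adjusted p = 0.15; 0.012 with the block). Incenp, the scaffold, rose from 45.8 ± 8.35 to 64.8 ± 5.46 FPKM (mean ± SD, n = 4; log2 fold change 0.50, adjusted p = 0.022) without overlap.

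Centromere and kinetochore genes included 5 of 7 that rose, and all 7 were called with the block (median 0.55). Cenpa, the histone H3 variant that marks centromeres, was at 216, 123, 138 and 121 FPKM in the flow-through libraries and at 219, 154, 166 and 153 FPKM in the enriched ones. In mouse 1 the 2 libraries were nearly equal, and the log2 fold change of 0.23 (95% interval -0.22 to 0.69, adjusted p = 0.41) passed only with the block (0.043). Cenpf (chr1:189640606-189688086), a large protein of the outer kinetochore, was at 5.76, 3.68, 4.67 and 4.62 FPKM in the flow-through libraries and at 7.53, 11.8, 8.63 and 8.16 FPKM in the enriched ones. It was the member of lowest level and had one of the largest differences (log2 fold change 0.81, SE 0.16, adjusted p = 0.0075), with no overlap of the groups. Cenpe, the kinetochore kinesin that moves chromosomes to the spindle equator, rose from 8.54 ± 1.62 to 15.6 ± 2.31 FPKM (mean ± SD, n = 4; log2 fold change 0.80, adjusted p = 0.006). The 4 subunits of the Ndc80 complex, which binds spindle microtubules, were not alike in their calls. Ndc80 (0.64, adjusted p = 0.0056), Nuf2 (0.55, 0.039) and Spc25 (0.45, 0.033) rose. Spc24 was at 43.3, 30.2, 31.3 and 24.3 FPKM in the flow-through libraries and at 45.3, 36.6, 36.99 and 34.1 FPKM in the enriched ones, and passed only with the block (log2 fold change 0.26, adjusted p = 0.27; 0.039 with the block).

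Among 8 spindle motors and assembly factors, 4 rose (7 with the block; median 0.49). Kif22, a chromokinesin, was at 71.7, 42.7, 52.9 and 40.02 FPKM in the flow-through libraries and at 83.5, 66.6, 74.2 and 59.8 FPKM in the enriched ones (log2 fold change 0.47, adjusted p = 0.089; 0.0048 with the block). Kif11, the motor that pushes the spindle poles apart, was at 44.5, 34.3, 36.04 and 27.9 FPKM in the flow-through libraries and at 71.7, 56.8, 61.7 and 54.5 FPKM in the enriched ones. Its groups did not overlap (log2 fold change 0.77, SE 0.14, adjusted p = 0.0069). Nusap1, which bundles spindle microtubules, was at 39.1, 34.5, 31.2 and 26.1 FPKM in the flow-through libraries and at 70.2, 52.8, 56.6 and 53.6 FPKM in the enriched ones, again without overlap (log2 fold change 0.82, SE 0.14, adjusted p = 0.0046). Hmmr, a spindle-associated hyaluronan receptor, was at 32.2, 18.5, 25.1 and 16.4 FPKM in the flow-through libraries and at 30.7, 23.8, 27.5 and 22.7 FPKM in the enriched ones. In mouse 1 it was slightly lower in the enriched library, and it passed neither test (log2 fold change 0.21, 95% interval -0.25 to 0.67, adjusted p = 0.46; 0.12 with the block). The Aurka activator Tpx2 (0.50, adjusted p = 0.038) and the chromokinesin Kif4 (0.59, 0.034) rose, whereas the microtubule depolymerase Kif2c (0.39) and the spindle motor Kif15 (0.40) were called only with the block.

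Of the 6 genes of the central spindle and cytokinesis, 3 rose (5 with the block; median 0.49), and this group held both one of the firmest increases and the single negative value. Racgap1 (chr15:99620496-99651656), which forms centralspindlin with Kif23, was at 66.3, 76.9, 70.5 and 67.8 FPKM in the flow-through libraries and at 133, 113, 115 and 106 FPKM in the enriched ones. Its lowest enriched library was well above its highest flow-through library, and its log2 fold change was 0.72 (SE 0.09, adjusted p = 0.0016, the lowest of the 44). Kif23 rose from 19.3 ± 2.46 to 29.2 ± 2.14 FPKM (mean ± SD, n = 4; log2 fold change 0.58, adjusted p = 0.0059). Prc1, which bundles the microtubules of the central spindle, was at 47.2, 30.4, 36.4 and 28.6 FPKM in the flow-through libraries and at 64.3, 55.3, 53.7 and 50.3 FPKM in the enriched ones and rose without overlap (log2 fold change 0.66, SE 0.16, adjusted p = 0.017). Anln (chr9:22332012-22389188), anillin of the contractile ring, was at 15.6, 8.97, 10.7 and 7.81 FPKM in the flow-through libraries and at 10.5, 10.3, 9.65 and 7.95 FPKM in the enriched ones. Flow-through replicate 1 was above all other libraries, and the log2 fold change of -0.11 (95% interval -0.55 to 0.32, adjusted p = 0.69; 0.49 with the block) turned to 0.07 without that library and to 0.03 without mouse 1. The cytokinesis factor Ect2 (0.40) and the motor Kif20a (0.38) passed the test only with the block.

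Both genes of chromosome structure rose. Top2a (chr11:98992943-99024189), the topoisomerase that untangles sister chromatids, had the highest mean of the list, with 153, 134, 139.5 and 113 FPKM in the flow-through libraries and 262, 214, 230.0 and 198 FPKM in the enriched ones. The groups did not overlap (log2 fold change 0.74, SE 0.12, adjusted p = 0.0038). Mki67, which encodes the proliferation marker Ki-67 of the chromosome surface, was at 57.9, 31.6, 41.3 and 28.8 FPKM in the flow-through libraries and at 72.4, 65.4, 76.2 and 54.5 FPKM in the enriched ones. Flow-through replicate 1 was just above the lowest enriched library, and the log2 fold change was 0.78 (SE 0.21, adjusted p = 0.027).

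Ratios of FPKM within each library were taken for pairs of members. These pairs were chosen after their values had been seen and were not tested. Ccnb2 was 1.17 ± 0.20 times Ccnb1 in flow-through libraries and 1.53 ± 0.07 times in enriched ones (mean ± SD, n = 4), with no overlap. Birc5 over Aurkb was 2.12 ± 0.09 and 2.76 ± 0.25, and Top2a over Cenpa was 0.93 ± 0.16 and 1.32 ± 0.09, both also without overlap. Racgap1 over Anln was 7.03 ± 2.09 and 12.2 ± 1.03. By contrast, the ratios of Ndc80 to Nuf2 (0.57 ± 0.10 and 0.61 ± 0.06), of Spc25 to Spc24 (0.69 ± 0.10 and 0.79 ± 0.05) and of Racgap1 to Kif23 (3.70 ± 0.55 and 3.99 ± 0.30) overlapped between the fractions.

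Most members shared their highest and their lowest library within each fraction. These ranks were not counted over all genes. The DNA replication genes, given further on, also had mouse 1 highest and mouse 4 lowest in both fractions. Flow-through replicate 1 was also the library with the lowest T-cell identity and the highest erythroid progenitor markers. Within the flow-through, replicate 1 was the highest library for 41 of the 44 members and replicate 4 the lowest for 39. Within the enriched fraction, replicate 1 was the highest for 36 and replicate 4 the lowest for 41. The mean of log2(FPKM + 1) over the members was 5.51, 4.98, 5.16 and 4.81 in flow-through replicates 1 to 4 and 5.79, 5.55, 5.63 and 5.40 in enriched replicates 1 to 4, so mouse 1 was highest and mouse 4 lowest in both fractions. The summed FPKM of the members was 2665, 1813, 2058 and 1606 in flow-through replicates 1 to 4 and 3353, 2681, 2856 and 2474 in enriched replicates 1 to 4.

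**Figure D4:**
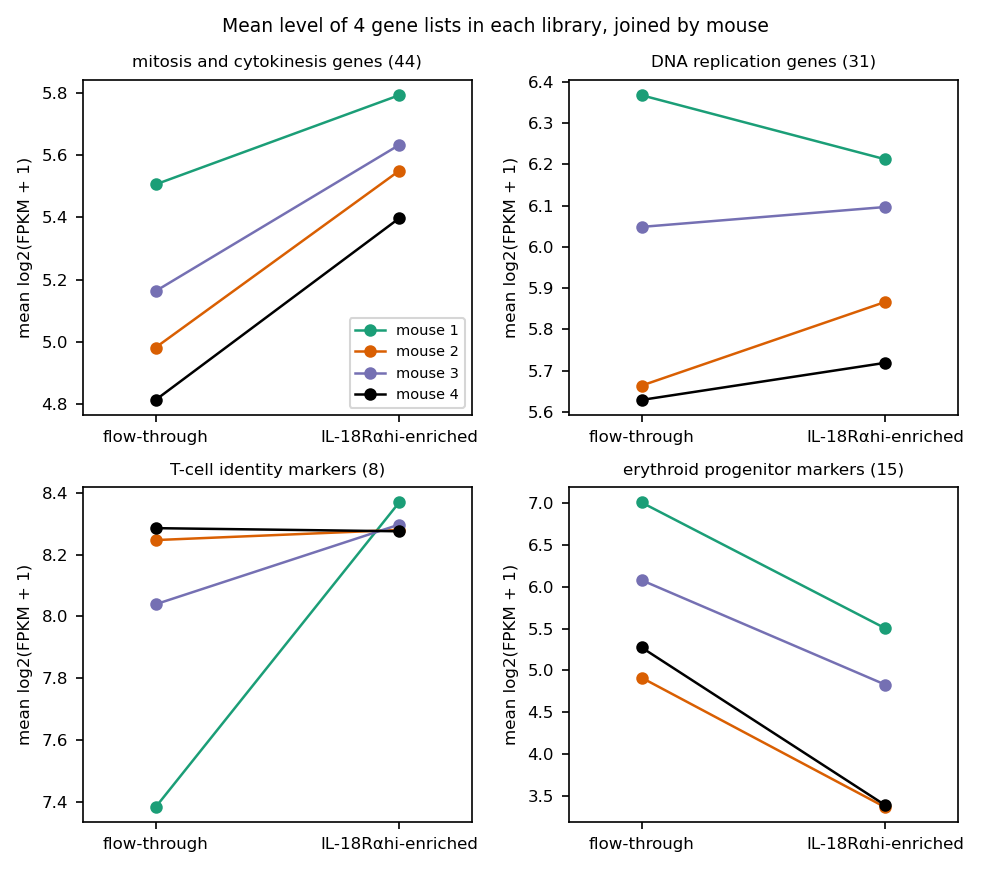
Mean log2(FPKM + 1) of the 44 members, 31 DNA replication genes, 8 T-cell identity markers and 15 erythroid progenitor markers in each library, with lines joining the libraries of a mouse. The members were higher in the enriched library of all 4 mice, the replication genes in 3 of 4, and the erythroid markers in none. Vertical scales differ between panels.

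Markers of other cells moved with the libraries as well, and their part in the result was not tested. All 15 erythroid progenitor markers, such as Gata1 and Klf1, were present. Their summed level was 1161 to 3652 FPKM in flow-through and 260.8 to 1078 FPKM in enriched libraries, lower in the enriched library of every mouse, and 6 of 15 fell (14 with the block). Gata1, the erythroid transcription factor, was at 117, 32.7, 64.2 and 43.2 FPKM in the flow-through libraries and at 30.7, 8.13, 20.5 and 7.22 FPKM in the enriched ones, so mouse 1 was highest in both, as it was for the members. Hematopoietic progenitor markers summed to 65.1 to 87.9 FPKM and 27.7 to 51.4 FPKM, with 4 of 6 called lower (5 with the block) and 1, Flt3, higher. Over all genes, 13.7% were called lower (22.7% with the block). The 5 granulocyte progenitor markers summed to 587 to 3424 FPKM in flow-through and 567 to 3342 FPKM in enriched libraries, and none was called by limma without the block (0 at an unadjusted p under 0.05). With the block, 1 was called higher and 1 lower. The summed level of 5 globin and heme genes was 204 to 1055 FPKM and 117 to 1146 FPKM, with none called (0 at an unadjusted p under 0.05; 2 called lower with the block).

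Some other markers rose in the enriched fraction, where 14.1% of all genes were called higher (22.2% with the block). The 9 myeloid markers, of which Ly6g was at 0 in 1 enriched library, summed to 167 to 604 FPKM in flow-through and 514 to 1687 FPKM in enriched libraries. Of these, 8 were tested and 5 rose. The 5 plasma cell markers summed to 293 to 1236 FPKM and 532 to 1476 FPKM, with none called without the block (2 at an unadjusted p under 0.05) and 5 with it. The 7 B-cell markers summed to 24.6 to 63.1 FPKM and 40.6 to 82.3 FPKM. Of the 5 that were tested, 1 rose (2 with the block), 3 had a positive log2 fold change, and the median was 0.10. No rise of the B-cell list is read from this. The 6 NK markers summed to 13.04 to 24.4 FPKM and 35.3 to 84.9 FPKM, and 4 of the 5 tested rose. So did 3 of 3 CD4 and regulatory T-cell markers (9.51 to 16.6 FPKM and 27.2 to 53.7 FPKM) and 2 of 5 γδ T-cell markers (48.5 to 76.1 FPKM and 63.1 to 132 FPKM). Of the 5 melanoma markers, Mlana, Tyr, Dct and Tyrp1 were at 0 in every library, and Pmel was under 1 FPKM. None of the 8 T-cell identity markers was called by limma, and 2 were higher at an unadjusted p under 0.05. All 8 nevertheless had a positive log2 fold change, with a median of 0.38 beside 0.46 for the members. For 5 of the 8, every enriched library lay above every flow-through library, which held for 16.4% of all genes.

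The calls depended on flow-through replicate 1. Without it, 38 of the 44 members were called higher and the median was 0.61, and without both libraries of mouse 1, 33 were called and the median was 0.53. Without flow-through replicate 3, or without enriched replicate 1, 2 or 3, the number was 12 in each case, and 11 members were called in all 8 fits that left out 1 library. When each library was divided by the geometric mean of its T-cell identity markers (T-cell scaling), 0 members were called higher and 0 lower by limma, against 4.42% and 7.2% of all genes, and 0 had an unadjusted p under 0.05. That scaling moved the median of all genes from -0.02 to -0.31 and the share of calls that were higher from 50.8% to 38.0%. The median of the members became 0.14, which was 0.45 above the median of all genes (0.48 without the scaling), and 36 of 44 stayed positive. Ccnb1, Bub3, Ttk, Pttg1, Cenpa, Spc24 and Hmmr turned slightly negative, between -0.10 and -0.01. Within mice, the log2 difference of the mean of the members under T-cell scaling, enriched minus flow-through, was -0.68 in mouse 1 and 0.53, 0.22 and 0.59 in mice 2 to 4. With T-cell scaling and mouse 1 left out, 15 members were called higher, 43 were positive and the median was 0.44.

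Other cell cycle lists were set beside the members. These lists too were chosen with earlier results of these data known, so the contrast is a description. Of 86 other mitosis genes, 25 rose and 0 fell (46 and 5 with the block), with a median log2 fold change of 0.32. Over all genes, 14.1% rose and 13.7% fell (22.2% and 22.7% with the block). The largest were Cdc25b, a phosphatase that activates Cdk1, and Cep55, which organizes abscission of the midbody. Cdc25b was at 45.7, 62.3, 51.3 and 56.4 FPKM in the flow-through libraries and at 158, 132, 132 and 125 FPKM in the enriched ones (log2 fold change 1.33, SE 0.11, adjusted p = 0.00036). Cep55 was at 7.61, 13.3, 11.2 and 11.1 FPKM in the flow-through libraries and at 28.98, 25.8, 28.5 and 26.6 FPKM in the enriched ones (log2 fold change 1.29, SE 0.15, adjusted p = 0.0011). Both exceeded every member, and they remained positive under T-cell scaling (1.02 and 0.99). The smallest increases that passed the test were those of the kinetochore gene Mis12 (0.31) and of Fzr1 (0.43), a late activator of the anaphase-promoting complex.

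Without the block, few DNA replication genes were called. Of 31, 1 rose and 0 fell, where 14.1% and 13.7% of all genes did. With the block, 7 rose and 1 fell, where 22.2% and 22.7% of all genes did, so the share that rose was near that of all genes. At an unadjusted limma p under 0.05, 3 were higher and 0 lower. The median log2 fold change was 0.01, near that of all genes. Tyms, thymidylate synthase, was the gene that rose, from 70.2 ± 19.2 to 104 ± 14.5 FPKM (mean ± SD, n = 4; log2 fold change 0.59, adjusted p = 0.041). The mean log2(FPKM + 1) of the list was 6.37, 5.66, 6.05 and 5.63 in flow-through replicates 1 to 4 and 6.21, 5.87, 6.10 and 5.72 in enriched replicates 1 to 4, thus lower in the enriched library of mouse 1 and higher in those of the other mice. The order of the mice was that of the members, with mouse 1 highest and mouse 4 lowest in both fractions. The difference between the lists was not tested.

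**Figure D5:**
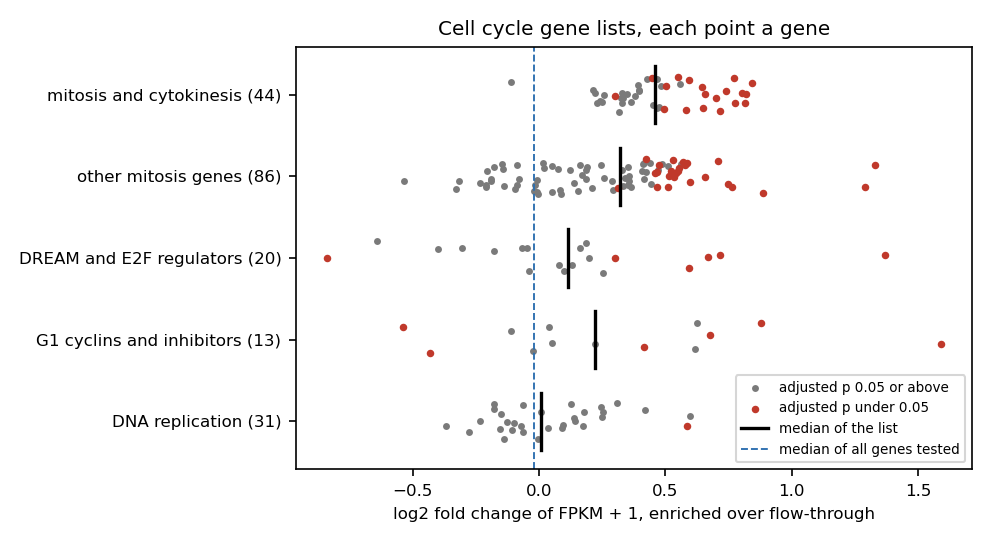
Log2 fold change of FPKM + 1 between the fractions for each tested gene of 5 cell cycle lists, with red points for genes with a limma adjusted p under 0.05 and black bars for list medians. The medians run from 0.46 for the members and 0.32 for other mitosis genes to 0.01 for DNA replication genes, and the dashed line is the median of all genes tested, -0.02.

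Regulators of the DREAM and E2F list and of the G1 list were mixed. Their counts stand beside 14.1% called higher and 13.7% lower over all genes (22.2% and 22.7% with the block). Of 20 DREAM and E2F genes, 5 rose and 1 fell (6 and 3 with the block; median 0.12). E2f2, an E2F activator, was at 24.2, 24.7, 24.9 and 21.5 FPKM in the flow-through libraries and at 70.4, 59.03, 64.6 and 58.7 FPKM in the enriched ones (log2 fold change 1.37, adjusted p = 0.0002), and the repressor E2f7 had a log2 fold change of 0.72 (adjusted p = 0.0071). The pocket protein genes Rbl2 (0.59) and Rbl1 (0.30, or -0.01 under T-cell scaling) rose, and the E2F partner Tfdp2 fell (log2 fold change -0.84, adjusted p = 0.026). Mybl2, which encodes B-Myb, was at 28.2 ± 9.83 FPKM in flow-through and 26.5 ± 4.18 FPKM in enriched libraries (mean ± SD, n = 4). It was not called by limma (log2 fold change -0.04, adjusted p = 0.91, or 0.78 with the block). The MuvB genes Lin9 (0.10), Lin37 (0.20), Lin52 (-0.05), Lin54 (0.13) and Rbbp4 (0.16) were called by neither fit. Of 13 G1 cyclins, kinases and CDK inhibitors tested, 4 rose and 2 fell (7 and 2 with the block; median 0.22). The inhibitor Cdkn2a was at 0.658, 1.34, 0.823 and 2.004 FPKM in the flow-through libraries and at 6.25, 4.66, 7.08 and 4.29 FPKM in the enriched ones (log2 fold change 1.59, adjusted p = 0.0021), and Cdkn2c had a log2 fold change of 0.88 (adjusted p = 0.00098). The inhibitor Cdkn2d (0.68) and the D-type cyclin Ccnd3 (0.42) also rose. The partner kinases of D-type cyclins had negative log2 fold changes, -0.54 for Cdk4 (adjusted p = 0.041) and -0.43 for Cdk6 (adjusted p = 0.013).

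Some values carry an uncertainty of position. In the mm10 annotation, exons of 13 members overlap those of another gene, in 11 members on the opposite strand, and the use of strand in the counting was not stated. Among them are Ccna2 with Exosc9 (mean 25.9 FPKM), Cdc20 with Elovl1 (80.7 FPKM), Kif20a with Cdc23 (29.4 FPKM), Kif4 with Pdzd11 (23.8 FPKM), Nusap1 with Oip5 (13.2 FPKM), Prc1 with Rccd1 (9.54 FPKM) and Cdca8 with 9930104L06Rik (6.93 FPKM). In the others the overlapping gene was under 1 FPKM or had no value matched here.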

How the data were processed

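Stranded paired-end mRNA libraries of 8 samples were sequenced. The authors dropped low-quality reads, mapped the others to mm10 with TopHat and computed FPKM with Cufflinks 2.1.1, correcting for multi-mapping reads and fragment bias. The deposited FPKM hold no whole reads, so no count model was used. Depth was estimated from the smallest values of long single-transcript genes. No per-sample FPKM column was left unused.

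Fractions were compared with limma 3.58.1 (R 4.3.3) on log2(FPKM + 1) with a variance trend, over the 12166 genes whose mean reached 1 FPKM, with Benjamini-Hochberg adjustment over all of them and a two-sided threshold of 0.05. A fold change on this scale understates that of low genes. The study gives 4 mice per group and took both fractions from the same cells. The labels give a number per library but name no mouse. Same-numbered libraries were taken as 1 mouse because their deviations from the group means correlated at 0.31 to 0.66 across genes (4 pairs); differently numbered ones reached at most 0.41, and each library correlated best with its own number. The mouse was the block of the alternative fit. Alternatives were another pseudocount, other filters, 2 scalings, no trend, each library left out, and 3 chosen after seeing the data (without mouse 1, and T-cell scaling with the block or without mouse 1).

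The members and lists were chosen with earlier results of these data known. In each role group, every library's value was given for the 2 members of highest mean, those with the largest and smallest log2 fold change, and any that passed the test in the minority direction. From other lists, the 2 largest and 2 smallest changes past the test were named. Mybl2 and the MuvB genes were added after the values had been seen, because the opening background names their products. Of the genes sought for the lists, 2 were not found. Promoters came from RefSeq on GRCm38.p6, and gene positions from an annotation of mm10.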

Additional observations from a re-analysis of the deposited data

Results flagged for a closer look

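In the flow-through group, Cdc25c was at 13.1 FPKM in replicate 1, far above the 6.28 to 7.43 FPKM of the other 3 libraries. In the enriched group, Ube2c was at 233 FPKM in replicate 1, against 158 to 166 FPKM in the other 3. Each was flagged because 1 library lay far from the rest of its group (Dixon's test). Of 88 groups of 4 libraries examined, chance alone would flag about 1 in 20, or 4.4. Both values come from mouse 1, which was highest for most members.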

How the results depend on the processing

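Of 44 members, 19 were called higher by limma. The number was 39 with the mouse as a replicate block, 0 under T-cell scaling and 0 under the block with T-cell scaling, 33 without mouse 1, and 12 to 38 when each library was left out. No member was called lower in any of these fits (0 in each). The block added 20 calls among the members and lost none. Other mitosis genes called higher (25) numbered 46 with the block, 2 under T-cell scaling and 2 with the block added, 39 without mouse 1, 14 under T-cell scaling without mouse 1, and 11 to 43 with 1 library left out. Those called lower (0) numbered 5 with the block, 1 with the block and T-cell scaling, 1 without mouse 1, and 0 to 1 with 1 library left out. DREAM and E2F genes called higher (5) numbered 3 at a mean of at least 5 FPKM, 1 under T-cell scaling with or without the block, 3 under T-cell scaling without mouse 1, and 3 to 5 with 1 library left out. Those called lower (1) numbered 0 with no filter, 3 with the block, 3 with the block and T-cell scaling, and 0 to 2 with 1 library left out. G1 genes called higher (4) numbered 7 with the block, 1 under T-cell scaling with or without the block, and 4 to 5 with 1 library left out. Those called lower (2) numbered 1 with no filter, 1 under median-of-ratios scaling, 0 under T-cell scaling, and 1 to 2 with 1 library left out. Replication genes called higher (1) numbered 7 with the block, 0 with no filter, 0 under T-cell scaling with or without the block, 2 without mouse 1, and 0 to 3 with 1 library left out. Those called lower (0) numbered 1 with the block and 0 with any library left out. The mean difference of the members was 0.48 on the log2 scale, 0.17 under T-cell scaling and 0.38 to 0.61 with 1 library left out, and 0 members met the listing criteria of the study in each fit.

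Signs turned under T-cell scaling, with or without the block, for Ccnb1 (-0.067), Bub3 (-0.094), Ttk (-0.061), Pttg1 (-0.011), Cenpa (-0.086), Spc24 (-0.053), Hmmr (-0.097) and Rbl1 (-0.0077). Anln turned to 0.068 without flow-through replicate 1 and to 0.025 without mouse 1, and ranged from -0.237 to 0.068 with 1 library left out. The other pseudocount, the filter at 5 FPKM, median-of-ratios scaling and no trend left all 44 members with the same direction and call, and no filter lost 5 calls. The causes were not tested. FPKM without reads gave no counting interval, and 4 mice limited the precision.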
